A study of Rattus norvegicus with 48 samples.

Results

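The genes Retn, LOC691143 and Tectb were examined in RNA-seq data of primary cultures of rat cortex given the HIV-1 protein Tat, cocaine and 4-octyl itaconate (4OI). They are 3 of the 30211 genes in the table, taken by their symbols. They had been chosen by the difference that 4OI made, which was not the same with and without Tat, and so were selected on the values of the Control, Tat, 4OI and Tat-4OI libraries. In those 4 groups their levels are therefore given as a description, without a test. The libraries of the other 12 groups had no part in that choice, and all tests below compare groups among them. The spread in the limma tests was estimated over all 48 libraries, those of the 4 choosing groups included. The 48 libraries fell into 16 groups of 3. Control cultures were untreated. Tat was given at 6 ng/mL for 48 h, cocaine at 25 µM for 24 h, and both in the Tat-Cocaine group. In the paper, the 24 h of cocaine came after the 48 h of Tat. Groups with and without cocaine may therefore also differ in total time. Each of the compounds 4OI (250 µM), Amlexanox (25 µM), Tazemetostat (3 µM) and Senicapoc (1 µM) was added for 48 h to untreated, Tat and Tat-Cocaine cultures. No group had cocaine and a compound without Tat. All cultures came from the cortex of fetal Sprague-Dawley rats, and the labels name no genotype by which the groups differ. Although the libraries are labelled as neurons, markers of astrocytes, oligodendrocytes and microglia were present in each library next to those of neurons, and a level here is that of a mixed culture. In such bulk samples fewer cells of a type and less RNA per cell cannot be told apart.

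Retn encodes resistin, a small cysteine-rich hormone. In rodents it is known as a product of fat cells, and in humans it comes mainly from monocytes and macrophages, where bacterial lipopolysaccharide and inflammatory cytokines raise it. The proteins Cap1, Tlr4 and Ror1 have each been proposed as its receptor. Tectb encodes beta-tectorin, a glycoprotein with a zona pellucida domain that, together with alpha-tectorin (Tecta), builds the matrix of the tectorial membrane over the hair cells of the inner ear. LOC691143 is a provisional symbol with no described role. 4OI is a cell-permeable ester of itaconate, the metabolite that activated macrophages make with the enzyme Acod1, and it is known to alkylate Keap1 and so to release the transcription factor Nrf2. Amlexanox inhibits the kinases TBK1 and IKK-epsilon, Tazemetostat inhibits the histone methyltransferase EZH2, and Senicapoc blocks the potassium channel KCa3.1.

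The regions around the starts of Retn and Tectb are shown because their windows hold the same 9 letters, a feature that the choice of the genes did not use. Each window spans 300 bases in the RefSeq annotation of the GRCr8 assembly, 250 before and 50 from the start on, and both lie on the plus strand, Retn at chr12:6508524-6508823 and Tectb at chr1:264226713-264227012. The sequence GGAAATTCC, a form of the kappa-B element that NF-kappa-B factors bind, is in capitals.
Retn: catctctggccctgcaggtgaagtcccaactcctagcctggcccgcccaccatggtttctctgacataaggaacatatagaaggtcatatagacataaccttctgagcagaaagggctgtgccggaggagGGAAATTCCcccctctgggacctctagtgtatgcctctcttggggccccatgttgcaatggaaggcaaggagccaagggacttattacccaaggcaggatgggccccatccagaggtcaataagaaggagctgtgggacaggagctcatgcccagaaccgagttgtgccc
Tectb: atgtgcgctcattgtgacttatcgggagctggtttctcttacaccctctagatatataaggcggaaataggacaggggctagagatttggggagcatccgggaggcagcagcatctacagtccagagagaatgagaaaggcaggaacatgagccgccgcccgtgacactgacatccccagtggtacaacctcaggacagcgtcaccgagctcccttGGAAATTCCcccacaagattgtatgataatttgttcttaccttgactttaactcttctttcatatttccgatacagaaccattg
In Retn these letters begin 120 bases before the start and in Tectb 34 bases before it. Searched on both strands, GGAAATTCC was present in 111 of 33469 windows of this length, or 0.332%. The longer kappa-B consensus, in which some positions allow several bases and which overlaps these letters, was found in both windows and in 2515 of all windows, or 7.51%. The 9 letters were chosen after the windows had been read, and a match is a stretch of letters, not a measured site. LOC691143 was matched to no window.

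In the 18 libraries without Tat, Retn was all but absent. It stood at 0 in 12 of them, including the Control libraries and those with 4OI alone, and at no more than 1 read in any, with 5.5 reads in all. Part reads come from fractional values in the table. Levels are in CPM, reads scaled to the size of the library, as in the deposited table, where 1 read was worth 0.0334 to 0.0583 CPM. With Tat but without 4OI, the 24 libraries held 1.92 to 9.20 CPM (median 4.73), which stands for 34.5 to 200 reads. With Tat and 4OI, the 6 libraries held 0.0973 to 0.538 CPM, or 2 to 10 reads. The 3 ranges did not overlap. They include libraries of the choice, and the share of all genes for which this held was not counted.

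In the groups that chose the genes, Retn was at 5.02, 9.20 and 7.42 CPM in the Tat libraries and at 0 in the Control libraries. Taking 3 reads per library as the limit that a count of 0 allows, the level with Tat was at least 54.3-fold higher. In the Tat-4OI libraries it was 0.107, 0.538 and 0.0973 CPM. The mean fell from 7.21 ± 2.10 (SD, n = 3) with Tat to 0.247 ± 0.252 (SD, n = 3) with Tat-4OI, a ratio of 29.2.

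Retn in the Tat-Cocaine libraries, which had no part in the choice, was at 2.75, 7.12 and 4.75 CPM. With 4OI added it was at 0.117, 0.117 and 0.0991 CPM, and the groups did not overlap. The mean with 4OI was 2.28% of that without it (0.111 ± 0.0102 against 4.87 ± 2.19, SD, n = 3 each). From 356 reads against 7 (6.5 before rounding), the ratio of 41.03 had a 95% counting interval of 19.7 to 103, which covers counting error only. On the log2(CPM + 0.5) scale the fitted change was -3.05 (SE 0.25, limma, Benjamini-Hochberg FDR = 1.17e-10). This scale understates the change of a gene with so few reads. Retn passed the filter on low values (0.5 CPM in 3 libraries) only through libraries with Tat. Those with Tat and 4OI held at most 0.538 CPM, so the filter favoured a fall of Retn with 4OI.

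**Figure D1:**
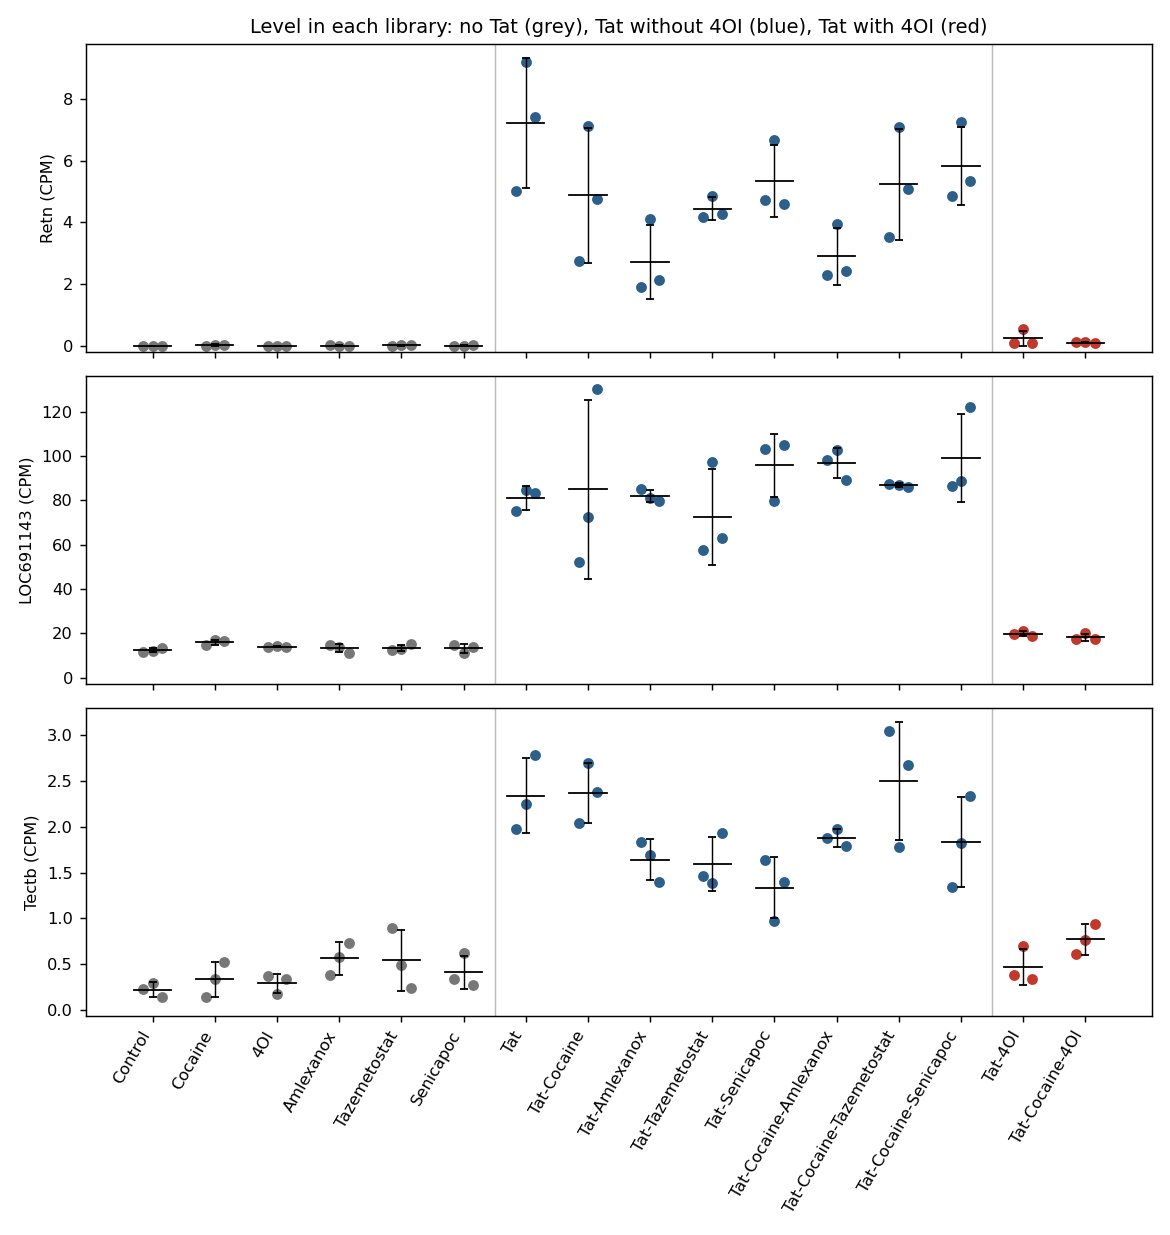
CPM of Retn, LOC691143 and Tectb in each of the 48 libraries, by group. Points are libraries, horizontal bars are means and error bars are SDs (n = 3). In each panel the 24 libraries with Tat and no 4OI (blue) lie above all 24 others, which are those without Tat (grey) and those with Tat and 4OI (red). Libraries of the choice are among both sets, and the share of all genes so separated was not counted.

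LOC691143 was measured in all libraries. Without Tat it ranged from 11.1 to 16.9 CPM over 18 libraries (median 14.01), and with Tat but no 4OI from 52.4 to 130.1 CPM over 24 libraries (median 86.4). The 6 libraries with Tat and 4OI lay between these ranges, at 17.35 to 21.24 CPM. The gap between them and the libraries without Tat was small.

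Among the groups of the choice, LOC691143 had a mean of 12.5 ± 0.952 CPM in Control, 81.0 ± 5.25 with Tat, 14.1 ± 0.169 with 4OI alone and 19.9 ± 1.23 with Tat-4OI (SD, n = 3). In the Tat-Cocaine libraries it was at 52.4, 72.3 and 130.1 CPM, a wide spread. With 4OI added it was at 17.41, 20.12 and 17.35 CPM, below each of the 3. The fitted change was -2.09 on the log2 scale (SE 0.19, limma FDR = 8.96e-10), and the mean with 4OI was 21.5% of that without.

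Tectb gave few reads in cultures without Tat, 3 to 21 per library over the 18 libraries (0.136 to 0.897 CPM). The 24 libraries with Tat and no 4OI held 0.974 to 3.04 CPM, or 20 to 66 reads. With Tat and 4OI it was at 0.341 to 0.942 CPM in 6 libraries, which overlaps the range without Tat.

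Of the groups that chose it, Tectb had means of 0.220 ± 0.0795 CPM in Control, 2.34 ± 0.413 with Tat, 0.291 ± 0.104 with 4OI and 0.471 ± 0.198 with Tat-4OI (SD, n = 3). The Tat-Cocaine libraries held 2.044, 2.701 and 2.375 CPM of Tectb. The Tat-Cocaine-4OI libraries held 0.608, 0.758 and 0.942 CPM, all lower. The change was -1.18 on the log2 scale (SE 0.21, limma FDR = 0.000297), and the mean with 4OI was 32.4% of that without. When only these 2 groups were fitted, the FDR of the same change was 0.0600 for Tectb and 0.0556 for LOC691143, both above the threshold of 0.05.

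All 3 genes were thus lower with 4OI in Tat-Cocaine cultures. Of the 15890 genes tested, 3.29% were called lower and 4.07% higher in this comparison at FDR under 0.05. The 3 libraries with 4OI lay below the 3 without it for each of the 3 genes, as they did for 8.8% of all genes. For Retn this separation and its call were favoured by the filter, which it passed chiefly through libraries with Tat and no 4OI. Nothing in the labels says that replicates came from separate animals, so p-values measure the spread between these cultures, which may be technical.

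The rise with Tat was tested in 4 backgrounds whose libraries had no part in the choice: Cocaine, Amlexanox, Tazemetostat and Senicapoc, each with and without Tat. Without Tat these backgrounds held 5.5 reads of Retn in all over 12 libraries. With Tat, Retn was at 2.75 to 7.12 CPM beside cocaine, 1.92 to 4.11 CPM beside Amlexanox, 4.19 to 4.87 CPM beside Tazemetostat and 4.59 to 6.67 CPM beside Senicapoc. Because a ratio to 1 or 2 reads is loose, the ratios from reads had wide counting intervals, 46.8 to 1411 beside cocaine and 37.5 to 8418 beside Amlexanox. Pooled over the backgrounds, the rise was 3.15 on the log2(CPM + 0.5) scale (SE 0.13, limma FDR = 2.88e-20). Retn passed the filter on low values only through libraries with Tat, so that its rise was largely fixed by the filter.

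LOC691143 rose by 2.49 (SE 0.09, limma FDR = 1.46e-20) and Tectb by 1.22 (SE 0.11, limma FDR = 1.80e-11) in the same pooled comparison. In the means, LOC691143 rose 5.29-fold beside cocaine (from 16.1 ± 1.14 to 84.9 ± 40.3 CPM, SD, n = 3) and 7.15-fold beside Senicapoc (from 13.4 ± 2.01 to 95.9 ± 14.2 CPM). Tectb rose 7.09-fold beside cocaine, from 0.335 ± 0.191 to 2.37 ± 0.329 CPM (SD, n = 3). Beside the 3 compounds the rise of Tectb was 2.92- to 3.27-fold.

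For each of the 3 genes the 12 libraries with Tat lay above the 12 without it, which held for 2.53% of all genes tested. An exact permutation test that reassigned Tat within each background (two-sided, 160000 arrangements) gave p = 1.25e-05 for each gene, the smallest value it can give. At FDR under 0.05, 26.5% of all genes were called higher and 21.3% lower with Tat, so a rise by itself was common in these cultures. All 3 genes also rose in each background alone, with limma FDR values of 0.00107 or less. For Retn the separation, the permutation p and these calls were largely fixed by the filter, which it passed only through libraries with Tat. Of all genes, 6.75% were called higher when Tat was added to Cocaine, 22.6% when it was added to Amlexanox, 10.4% to Tazemetostat and 10.8% to Senicapoc. The size of the rise was not shown to differ among the 4 backgrounds. The limma F test gave FDR values of 0.285 for Retn, 0.431 for LOC691143 and 0.181 for Tectb, against 1.47% of all genes called, and the lowest and highest rise differed by 0.91, 0.53 and 0.79 on the log2 scale.

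The third Cocaine library stood apart, with 22640 CPM summed over 5 oligodendrocyte markers, against 81.7 to 1864 CPM in the 45 libraries of the other groups. Without it, the pooled rise was 3.15 for Retn, 2.50 for LOC691143 and 1.26 for Tectb.

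**Figure D2:**
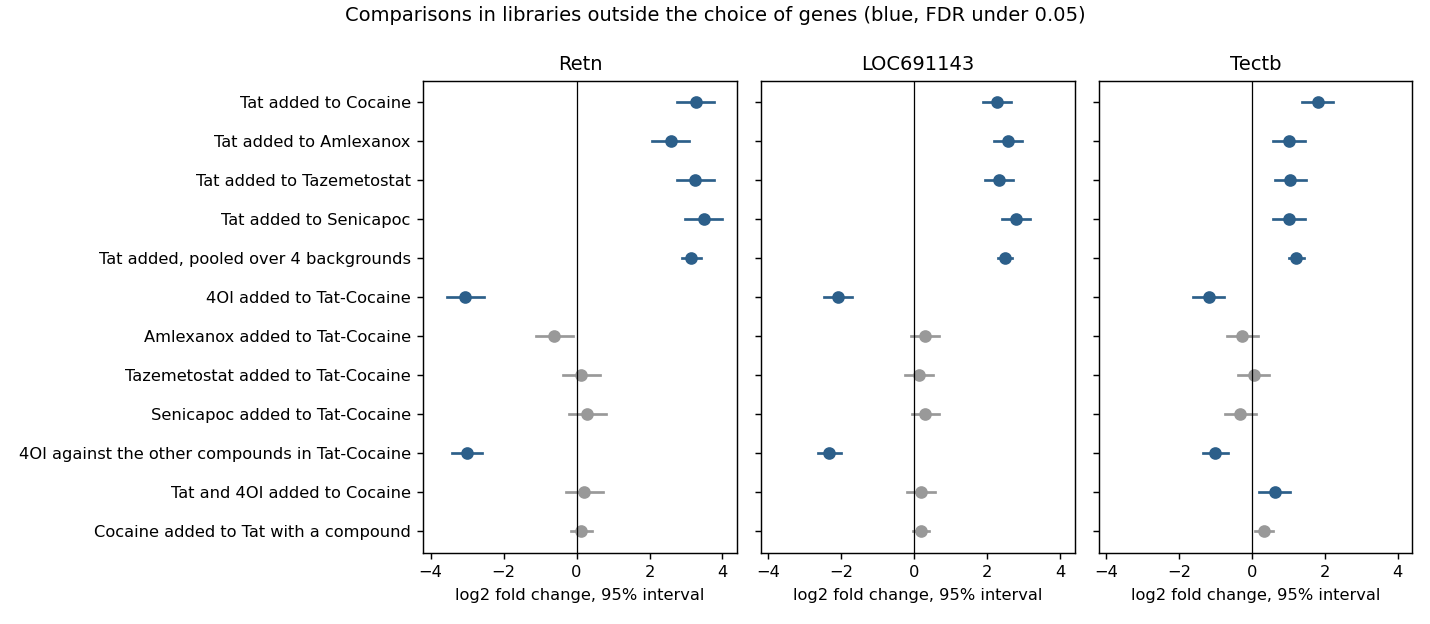
Fitted log2 fold changes (x axis, on the log2(CPM + 0.5) scale) of the 3 genes in 12 comparisons (y axis), with 95% intervals from limma. Blue marks FDR under 0.05. Tat moved each gene up in all 4 backgrounds and 4OI moved each down, while the intervals for Tazemetostat and Senicapoc added to Tat-Cocaine include 0 for all 3.

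With the other 3 compounds no fall was called in Tat-Cocaine cultures. Retn was at 2.31, 3.96 and 2.43 CPM with Amlexanox, a mean of 2.90 ± 0.919 (SD, n = 3), with 2 of the 3 libraries below the lowest Tat-Cocaine library. The difference of -0.61 (95% interval -1.12 to -0.10) missed the threshold (limma FDR = 0.203). With Tazemetostat Retn was at 3.53, 7.08 and 5.07 CPM and with Senicapoc at 4.85, 7.26 and 5.35 CPM. The differences were 0.13 (interval -0.38 to 0.64, limma FDR = 0.718) and 0.30 (interval -0.21 to 0.81, limma FDR = 0.565).

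Pooled by compound, the 6 libraries with Tat and Amlexanox, with or without cocaine, held 1.92 to 4.11 CPM of Retn (median 2.37). The 12 libraries with Tat and Tazemetostat or Senicapoc held 3.53 to 7.26 CPM (median 4.86). These ranges overlap, and the difference was noticed in the values and was not tested. LOC691143 had medians of 87.2 CPM in both sets. Set beside the Tat libraries, which took part in the choice and held 5.02 to 9.20 CPM of Retn, Tat-Amlexanox held 1.92 to 4.11 CPM and Tat-Tazemetostat 4.19 to 4.87 CPM, without overlap. Tat-Senicapoc held 4.59 to 6.67 CPM, with overlap. These differences were not tested, and the share of all genes without overlap in these pairs of groups was not counted.

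LOC691143 differed by 0.29 with Amlexanox (interval -0.09 to 0.67, limma FDR = 0.416), 0.14 with Tazemetostat (interval -0.25 to 0.52, limma FDR = 0.606) and 0.31 with Senicapoc (interval -0.07 to 0.69, limma FDR = 0.427). These values lean on the third Tat-Cocaine library, the one at 130.1 CPM. Without it the changes were 0.65, 0.49 and 0.66, each called at FDR under 0.05, and without the first they were -0.0066, -0.16 and 0.012. Tectb differed by -0.27 with Amlexanox (interval -0.69 to 0.16, limma FDR = 0.508), 0.05 with Tazemetostat (interval -0.38 to 0.47, limma FDR = 0.888) and -0.32 with Senicapoc (interval -0.74 to 0.11, limma FDR = 0.467). Of all genes, 0.925% were called with Amlexanox, 28.7% with Tazemetostat and 0.0441% with Senicapoc.

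Set against the mean of the other 3 compounds within Tat-Cocaine cultures, 4OI gave differences of -2.99 for Retn (SE 0.20, limma FDR = 3.36e-13), -2.33 for LOC691143 (SE 0.15, limma FDR = 1.51e-13) and -1.001 for Tectb (SE 0.17, limma FDR = 5.88e-05). The 3 libraries with 4OI lay below all 9 with another compound for each gene, as for 9.04% of all genes. For Retn this difference was also favoured by the filter on low values. In this comparison 12.1% of all genes were called lower and 7.77% higher. The compounds were given at different doses, one dose each, so the values describe these treatments and not the compounds at matched doses.

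Levels with Tat, cocaine and 4OI were then set against those with cocaine alone, a comparison added after the values had been seen. Retn was at 2 to 3 reads in each Tat-Cocaine-4OI library and at 0, 1 and 1 reads in the Cocaine libraries. On the log2(CPM + 0.5) scale the difference was 0.21 (95% interval -0.29 to 0.72, limma FDR = 0.630), at a depth that could not show a difference of a few reads. For LOC691143 it was 0.18 (interval -0.20 to 0.56, limma FDR = 0.576), with 17.35 to 20.12 CPM against 14.8 to 16.9 CPM, ranges that did not overlap. Tectb was higher by 0.62 (interval 0.19 to 1.05, limma FDR = 0.0434), and this call was lost under several alternatives, with FDR values from 0.0240 to 0.329. Of all genes, 13.9% were called in this comparison, and the share without overlap was not counted.

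No change with cocaine was called. Added to Tat in the presence of Amlexanox, Tazemetostat or Senicapoc, it gave differences of 0.13 for Retn (interval -0.16 to 0.42, limma FDR = 0.601), 0.19 for LOC691143 (interval -0.03 to 0.41, limma FDR = 0.295) and 0.33 for Tectb (interval 0.09 to 0.58, limma FDR = 0.108). At an unadjusted limma p under 0.05 the 1 gene of the 3 called was Tectb, as were 3490 of all 15890 genes tested. Of all genes 3.52% were called at FDR under 0.05. In Tat and Tat-Cocaine cultures without a compound, Retn means were 7.21 ± 2.10 and 4.87 ± 2.19 CPM (SD, n = 3), with overlapping libraries. Total time may also differ between the groups of these comparisons.

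In the order of the 16 group means, the 8 groups with Tat and no 4OI took the first 8 places for each gene. For Retn the order ran from Tat over Tat-Cocaine-Senicapoc (5.82 ± 1.27 CPM) and Tat-Senicapoc (5.33 ± 1.17) down to Tat-Amlexanox (2.72 ± 1.21), then Tat-4OI, Tat-Cocaine-4OI and the groups without Tat. Libraries of neighbouring groups failed to overlap at 3 of the 15 steps: above Tat-Cocaine-Amlexanox, above Tat-4OI and below Tat-Cocaine-4OI. LOC691143 was highest in Tat-Cocaine-Senicapoc (99.1 ± 19.9 CPM), and neighbours separated at 3 steps, on both sides of the pair of groups with Tat and 4OI and below Cocaine. Tectb was highest in Tat-Cocaine-Tazemetostat (2.50 ± 0.649 CPM) and had 1 such step, below Tat-Senicapoc (1.34 ± 0.336 CPM). The 16 groups include those of the choice. The shares of all genes with such an order or such steps were not counted.

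The rest of the resistin family was at or near 0. Retnla, Retnlb and Retnlg were at 0 in all Tat-Cocaine libraries and did not exceed 0.0454, 0.0483 and 0.0334 CPM in any of the 48. Of the list of resistin and its proposed receptors 4 of 7 genes could be tested, and all 4 rose with Tat in the pooled comparison, Retn having passed the filter on low values only through libraries with Tat. Ror1, a receptor tyrosine kinase-like protein, rose by 0.90 (limma FDR = 4.80e-09), Tlr4, the lipopolysaccharide receptor, by 0.85 (limma FDR = 0.000161) and Cap1, an actin-binding protein, by 0.09 (limma FDR = 0.0355). The median of the 4 was 0.87, against -0.0038 over all genes, of which 26.5% were called higher. With 4OI in Tat-Cocaine, Retn was the 1 gene of the 4 called. Tlr4 was at 8.50 ± 2.49 CPM without and 4.79 ± 3.55 CPM with 4OI (SD, n = 3, limma FDR = 0.103), and Cap1 at 504.5 ± 56.6 and 540.9 ± 45.3 CPM (limma FDR = 0.455). Against the other compounds in Tat-Cocaine, Tlr4 was lower with 4OI (-1.93, limma FDR = 6.22e-06).

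Of the fat-cell genes, leptin (Lep), adiponectin (Adipoq) and perilipin (Plin1) stood at or under 0.209 CPM in every library. Of 13 tested adipokine and adipocyte genes 4 rose and 2 fell with Tat, shares near the 26.5% and 21.3% of all genes, and Itln1, 1 of the 4, passed the filter only through libraries with Tat. Chemerin (Rarres2) rose by 1.81 (limma FDR = 1.13e-09) and adipsin (Cfd), a serine protease of the complement pathway, was lower by -1.35 (limma FDR = 3.51e-08). With 4OI in Tat-Cocaine only Cfd of the 13 was called, from 16.9 ± 3.93 to 4.43 ± 2.98 CPM (SD, n = 3, limma FDR = 0.000128). The median of the 13 was -0.20 with 4OI and 0.01 with Tat.

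Tecta, the gene of alpha-tectorin, was not called in either comparison. It was at 2.23 ± 0.442 CPM in Tat-Cocaine and 2.18 ± 0.954 CPM with 4OI (SD, n = 3, limma FDR = 0.918), and its pooled difference with Tat was -0.22 (limma FDR = 0.224). Of 6 tested genes with a zona pellucida domain, Tectb, the egg coat protein Zp2 (0.89, limma FDR = 8.54e-06) and the endothelial receptor Eng (0.81, limma FDR = 0.000184) rose with Tat, and Tectb alone of the 6 was called with 4OI added to Tat-Cocaine. Against the other compounds in Tat-Cocaine, 3 of the 6 were lower with 4OI (Tectb, Zp2 at -0.75, limma FDR = 0.0240, and Eng at -1.39, limma FDR = 0.000362), and Tgfbr3, a co-receptor of TGF-beta, was higher (0.46, limma FDR = 0.0471). Of the 6, Zp2 and Umodl1 passed the filter on low values only through libraries with Tat. The medians of the 6 were 0.40 with Tat and -0.54 with 4OI. Of all genes, 26.5% were called higher with Tat, and 12.1% were called lower with 4OI against the other compounds. Of the other inner ear matrix genes 3 of 10 were tested. The collagen genes Col11a2 (-1.43, limma FDR = 3.54e-07) and Col9a1 (-0.79, limma FDR = 0.000416) fell with Tat, beside 21.3% of all genes. Col11a1 rose with 4OI added to Tat-Cocaine (0.85, limma FDR = 0.0254), beside 4.07% of all genes.

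Inflammatory mediators rose widely with Tat and were called with 4OI in 1 case. All 10 tested members rose, with a median of 3.67, beside 26.5% of all genes called higher. They were led by the iron-binding protein Lcn2 (5.97, limma FDR = 2.47e-14), the chemokine Ccl20 (5.69, limma FDR = 5.61e-18), the chemokine Cxcl1 (4.41, limma FDR = 9.33e-13) and Acod1 itself (4.23, limma FDR = 3.16e-10). Acod1 passed the filter only through libraries with Tat. With 4OI in Tat-Cocaine, Ccl20 fell from 122.3 ± 72.9 to 13.8 ± 8.45 CPM (SD, n = 3, limma FDR = 0.00032), while Il1b was at 47.8 ± 31.6 and 19.9 ± 15.3 CPM (limma FDR = 0.113) and Lcn2 at 7591 ± 4503 and 5685 ± 2492 CPM. Il6 was at 1.87 ± 1.28 CPM without and 4.34 ± 2.90 CPM with 4OI (SD, n = 3, limma FDR = 0.254). The median of the 10 with 4OI was -0.99. Against the other compounds 5 of the 10 were called lower with 4OI, beside 12.1% of all genes. Targets of Nrf2 went the other way with 4OI: all 7 tested were called higher, beside 4.07% of all genes. Among them were the cystine transporter Slc7a11 (2.50, limma FDR = 5.72e-07), heme oxygenase Hmox1 (2.36, limma FDR = 6.70e-09) and the quinone reductase Nqo1 (1.88, limma FDR = 3.04e-09). With Tat, 2 of the 7 targets rose and 1 fell, near the 26.5% of all genes called higher and 21.3% called lower.

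**Figure D3:**
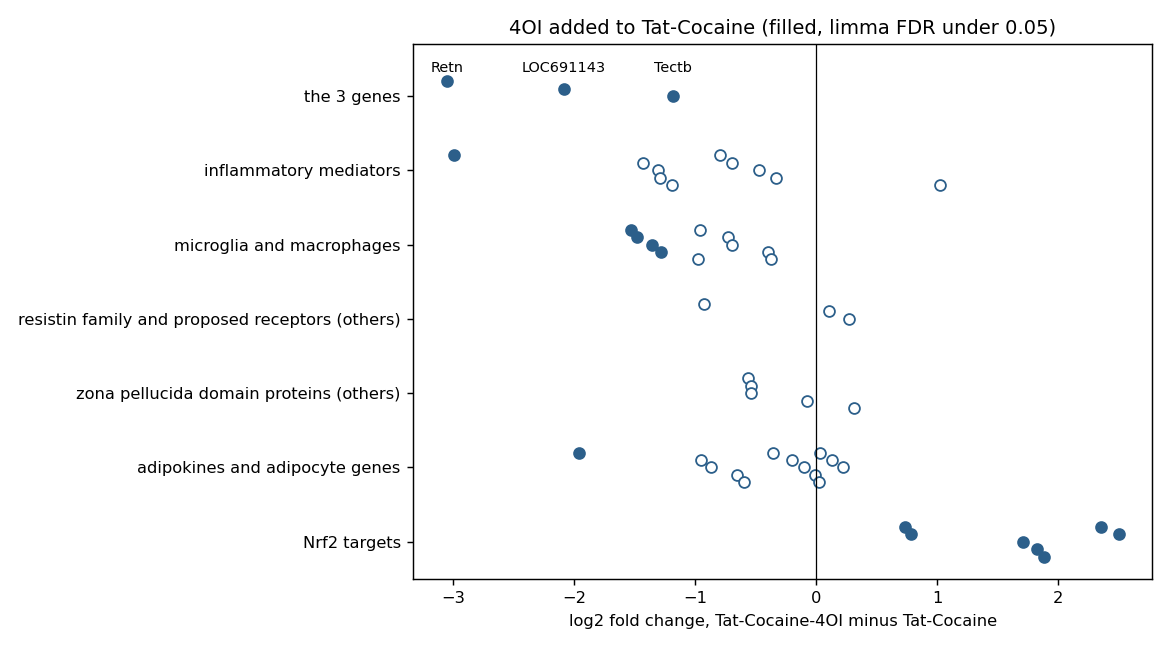
Log2 fold change with 4OI added to Tat-Cocaine (x axis) for the 3 genes and for the tested members of 6 gene lists (y axis); each circle is a gene, filled where the limma FDR was under 0.05. The 3 genes lie at -3.05, -2.09 and -1.18, 1 gene each is filled among inflammatory mediators and adipocyte genes, and all 7 Nrf2 targets lie above 0.

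Markers of microglia and macrophages moved with 4OI too. Of 10 such genes 4 were called lower with 4OI in Tat-Cocaine (Csf1r, C1qa, C1qb and Cd68), beside 3.29% of all genes. The median over the 10 was -0.97. All 10 were called lower than with the other compounds, beside 12.1% of all genes. None of the 10 was at 0 in any library. Their summed level was 1399 to 2360 CPM in the Tat-Cocaine libraries and 473 to 1644 CPM with 4OI, a ratio of the means of 2.18 and an overlap of the ranges. In the same comparison the ratio of the means was 43.9 for Retn, 4.64 for LOC691143 and 3.09 for Tectb. With Tat, pooled over the 4 backgrounds, 4 of the 10 markers rose (median 0.55), beside 26.5% of all genes. The sum was 1399 to 5209 CPM with Tat against 938 to 3843 CPM without it.

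Of 8 neutrophil markers 4 were tested. All 4 were called higher with Tat, but S100a8, Camp and Cxcr2 passed the filter on low values only through libraries with Tat, so that a rise of these 3 was largely fixed by the filter. Camp, the cathelicidin precursor, was the 1 of the 4 called lower with 4OI in Tat-Cocaine (-1.07, limma FDR = 0.0101), beside 3.29% of all genes. The same filter may have favoured this fall. The sum over all 8 was 21.0 to 53.7 CPM in Tat-Cocaine and 7.72 to 35.3 CPM with 4OI. Mpo, Elane, S100a9 and Ngp were too low to be tested and did not exceed 0.255 CPM in any library. With 4OI 3 of 6 astrocyte markers rose, among them Gfap (0.89, limma FDR = 0.0268), beside 4.07% of all genes called higher and 3.29% called lower. By limma 0 of 8 neuron markers and 0 of 5 oligodendrocyte markers were called, and 0 of either at an unadjusted p under 0.05. Of 4 tested endothelial and fibroblast genes, Dcn fell (-1.66, limma FDR = 0.0426). With Tat, 1 of 8 neuron markers and 1 of 5 oligodendrocyte markers fell, 2 of 6 astrocyte markers rose and 2 fell, and 1 endothelial or fibroblast gene of 4 rose and 1 fell, counts to be read beside the 26.5% of all genes called higher and 21.3% called lower with Tat. The part that these cell types had in the levels of the 3 genes was not tested.

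The genes whose group means were most like those of each gene were read off from Pearson's r over the 16 group means of log2(CPM + 0.5), among 14863 genes. The r is a description over 16 points that share libraries of the same treatments. For Retn these were Slpil2 (r = 0.987), the muramyl dipeptide sensor Nod2 (0.981), the AP-1 family factor Batf (0.981), the small GTPase Rhoj (0.979) and the TNF receptor family member Tnfrsf14 (0.979). Nod2 had means of 1.09 CPM in Control, 7.82 with Tat, 1.33 with Tat-4OI, 5.66 with Tat-Cocaine and 1.22 with Tat-Cocaine-4OI. Batf had 0.810, 11.6, 1.65, 6.74 and 1.39 CPM in the same order. Slpil2 had 0.0309, 2.79, 0.680, 2.35 and 0.226 CPM.

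For LOC691143 the list was led by Gstz1 (r = 0.987), an enzyme of tyrosine breakdown, with 27.5 CPM in Control, 50.3 with Tat and 29.8 with Tat-4OI. Then came Retn itself (0.978), Zc3h12d (0.978), the interferon-inducible Mnda (0.977) and the terminal uridylyltransferase Tut7 (0.977). For Tectb it was Plcxd1 (r = 0.978), Camp (0.977), the NADPH oxidase organizer Noxo1 (0.973), the MHC class II gene RT1-Db1 (0.970) and the kinase Map3k8 (0.969). RT1-Db1 had 0.500 CPM in Control, 20.5 with Tat, 1.52 with Tat-4OI, 15.9 with Tat-Cocaine and 2.64 with Tat-Cocaine-4OI. Among the 3 genes, r was 0.978 between Retn and LOC691143, 0.946 between Retn and Tectb and 0.943 between LOC691143 and Tectb. These values follow in part from the choice of the 3 genes for a shared pattern, in groups that are among the 16, and nothing is read from them.

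**Figure D4:**
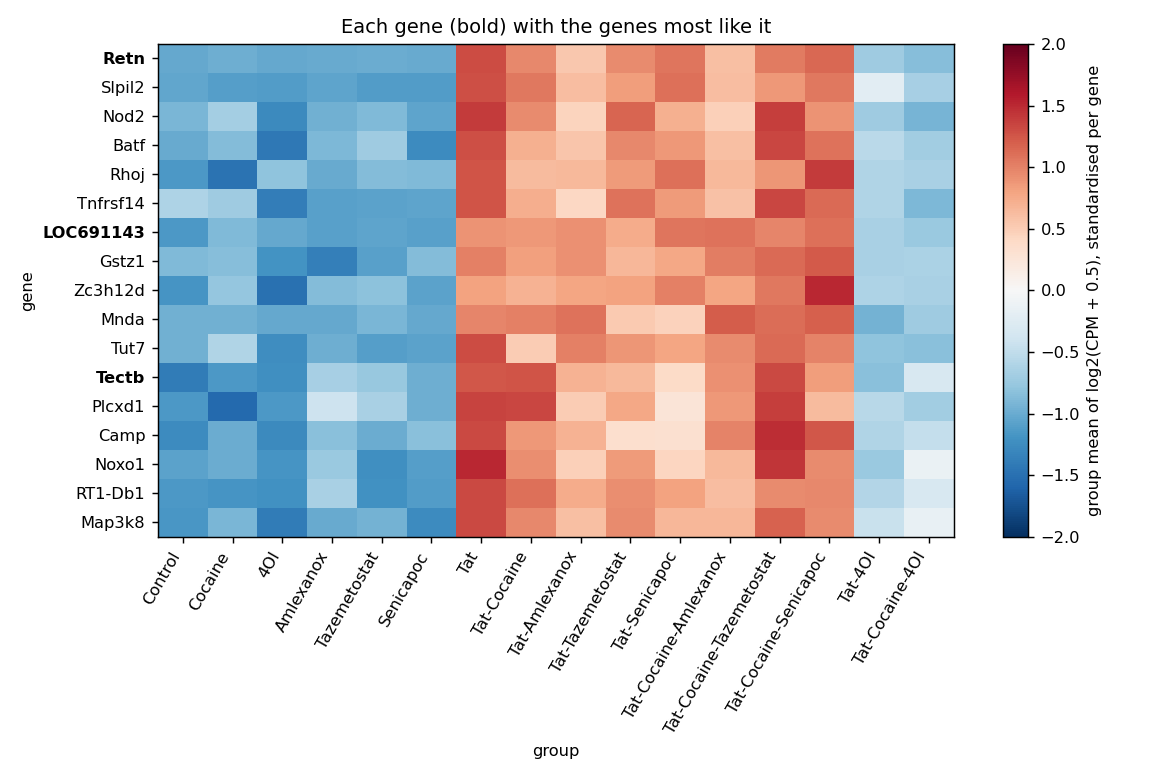
Group means of log2(CPM + 0.5), standardised per gene, for Retn, LOC691143 and Tectb (bold) and the genes with the highest Pearson's r to each over 16 groups. Rows are genes and columns are groups. The 8 groups with Tat and no 4OI are pale to dark red in all rows, and both groups with Tat and 4OI are pale to mid blue.

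Of the 14 genes in these lists other than the 3 themselves, 11 had a start window. The kappa-B consensus was found in 4 of the 11 (Batf, Camp, Map3k8 and Rhoj), or 36.4%. A gene counted here if any of its windows held the consensus. The 7.51% of all windows is a share of single windows, so the percentages are unlike measures. The 11 were also listed for their likeness over groups that include those of the choice, and nothing is read from this share. The 9 letters shared by Retn and Tectb were found in 1, Map3k8, a kinase gene at whose start they lie on the opposite strand. Its stretch of 49 bases at chr17:58078155-58078203 (GRCr8, plus strand) is shown with these letters in capitals.
Map3k8: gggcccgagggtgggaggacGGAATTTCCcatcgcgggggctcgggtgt
The windows were those of a later assembly and were searched for letters alone.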

How the data were processed

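RNA from 48 cultures (16 groups of 3) was sequenced as strand-specific paired libraries. The authors aligned reads to the rat genome with STAR (2.7.2) and counted them per gene with featureCounts (Subread 1.5.3), per the labels. The paper's methods and the submitters' processing notes name different rat builds, so no gene coordinates in the authors' build are given. The signal the authors deposited is CPM after TMM normalization in edgeR. The values of a library summed to 930399 to 1046890, and 85.0 to 87.3% were whole multiples of 1 read within 0.02 read. The rest were fractions, and no count test was run. Depth was 17.5 to 29.1 M reads on genes (median 22.4), and 0.5 CPM stood for 8.58 to 15.0 reads. The authors' 16 columns of group means and their 36 comparisons (fold changes and p-values) were not used. Groups and replicate numbers came from the labels.

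Values were analysed as log2(CPM + 0.5) with limma (3.58.1, trend, R 4.3.3) over all 48 libraries, for the 15890 genes with 0.5 CPM or more in 3 libraries or more. All 3 genes passed, Retn only through libraries with Tat, as did 408 of all genes tested. FDR is by Benjamini-Hochberg over all genes tested, with a threshold of 0.05. The script was tested on simulated data. The 48 pairs of libraries within groups had r of 0.987 to 0.999 on the log2 scale and chi-square per degree of freedom of 5.86 to 130.2, so none were duplicates. Counting intervals are exact at the 95% level. The 3 genes and the gene lists were chosen with earlier results of these data known. Named genes were the 3, members of the lists that passed the threshold with the largest changes first (at most 4 per list and comparison), and the 5 genes with the highest r to each, among genes at 1 CPM or more in a group. Tlr4, Cap1, Tecta, Il1b, Il6, Umodl1, Lep, Adipoq, Plin1, the other resistin-family genes and the untested neutrophil markers are named as the receptors, partner, relatives or markers of a cell type. Same-numbered libraries deviated together (all correlations above 0.1) in 5 of 14 pairs of groups, and the numbers were not treated as pairs. Alternatives were other pseudocounts, filters, scalings, fits and left-out libraries. LOC691143 was matched to no entry of the reference tables.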

Additional observations from a re-analysis of the deposited data

How the results depend on the processing

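Under the alternatives run, each fall with 4OI and each rise with Tat kept its direction, and all but these kept their call: fitted to the compared groups alone, 4OI added to Tat-Cocaine gave -2.09 for LOC691143 (FDR 0.0556) and -1.18 for Tectb (FDR 0.0600), and Tat added to Tazemetostat gave 1.05 for Tectb (FDR 0.0760). With libraries left out in turn, the fall with 4OI ranged from -3.37 to -2.76 for Retn, -2.38 to -1.73 for LOC691143 and -1.28 to -1.09 for Tectb. Changes that were not called turned with single libraries: Amlexanox added to Tat-Cocaine, LOC691143 -0.0066 to 0.65; Tazemetostat, Retn -0.19 to 0.42, LOC691143 -0.16 to 0.49 and Tectb -0.087 to 0.23; Senicapoc, Retn -0.020 to 0.60. With Senicapoc LOC691143 stayed above 0, at 0.012 to 0.66. The upper values of LOC691143 with all 3 compounds passed the threshold without the third Tat-Cocaine library. The call of Tectb in Tat and 4OI added to Cocaine was lost with a pseudocount of 1 (0.41), without a filter (0.62), with median ratio rescaling (0.60) and with the compared groups alone (0.62), and leaving out libraries gave 0.45 to 0.78. The cause was not tested.

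With the replicate number as a block (replicate block), no call of the 3 genes changed, and 4OI added to Tat-Cocaine gave -3.05 for Retn. Counts of all genes called moved from 147 to 338 for Amlexanox, from 7 to 18 for Senicapoc, from 560 to 1077 for cocaine and from 233 to 762 for the difference among backgrounds. With a pseudocount of 0.1 Amlexanox gave 91 calls. Without a filter, Senicapoc gave 12, cocaine 362 and the difference among backgrounds 104. Senicapoc gave 13 with quantile normalization. Retn has few or no reads in libraries without Tat or with 4OI, so that its fitted changes depend on the pseudocount.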

Other observations

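Retn was highest in the second replicate in 8 of 8 groups with Tat and no 4OI. For LOC691143 the second replicate was highest in 3 of these 8 groups and for Tectb in 2. The summed markers of microglia and macrophages and those of neutrophils were each highest in the second replicate in 7 of the 8 groups. So were the sums of adipokine and adipocyte genes and of Nrf2 targets. The sum of resistin and its proposed receptors was highest there in 6 of the 8 groups and that of inflammatory mediators in 5. Sums of neuron, astrocyte and oligodendrocyte markers were highest there in 0 of 8. The labels do not say what the replicate number stands for, and this pattern was noticed in the values and not tested.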
